A study of Mus musculus with 6 samples.

Results

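The SLAM family receptors and their adaptor SAP were examined as 8 genes, taken by name from the 48709 genes of the deposited expression table. They are the receptor genes Slamf1, Slamf6, Slamf7, Ly9, Cd48, Cd84 and Cd244, and Sh2d1a, which encodes SAP. All 8 were found. The RNA came from splenic invariant natural killer T (iNKT) cells of mice, T cells with a semi-invariant receptor for lipids held by CD1d, which were sorted and described as in the resting state. Of the 6 samples, 3 are labelled Gpx4 cKO, a conditional knockout of the lipid peroxide-reducing enzyme GPX4, and 3 are labelled WT. Tissue, cell type and state are shared by both genotypes. The strain, the age, the driver of the deletion and whether each sample was a separate animal are stated in no source used here. The table numbers its 6 libraries 18 to 23, and 0 of these names match a sample label. No library was therefore given a genotype, no Gpx4 cKO against WT comparison was made, and each gene is described library by library.

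SLAM receptors are immunoglobulin-like surface proteins of blood cells, and most of them bind the same receptor on a neighbouring cell, while CD244 binds CD48. Their cytoplasmic tails carry tyrosine motifs that dock SAP, which brings in the kinase FYN. In the thymus, iNKT precursors are selected by other CD4+CD8+ thymocytes, and contacts through SLAMF1 and SLAMF6 provide a signal that adds to that of the T cell receptor. Mice and people without SAP lack iNKT cells.

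The docking motif reads, in amino acids, threonine, any residue, tyrosine, any pair of residues, then valine or isoleucine. It was searched for in the coding sequence of 1 GENCODE M21 transcript per gene (GRCm38), and the sequences below show the matching codons. Capitals mark the 18 bases of the motif, written 5′ to 3′ on the coding strand, with 6 bases on either side. Both motifs of Slamf1 and Slamf6 are shown because these receptors act in iNKT selection. For Ly9 and Cd84 the motif nearest the end is shown, for Cd244 the third of its 4, and for Slamf7 and Cd48 the single match.
Slamf1 motif 1: agccttACTATTTATGCCCAAGTAcagaaa
Slamf1 motif 2: cccaccACAGTTTATGCCAGTGTGacactg
Slamf6 motif 1: gggaacACTGTGTATGCACAAGTCactcgt
Slamf6 motif 2: tccatgACAATTTACTCCATAGTTaatcat
Slamf7 motif: ccaaacACATTTTATTCCACTGTGcagatc
Ly9 motif 2: tcaaatACAATCTACTGCTCTGTGcagaag
Cd84 motif 2: gtgaccACCATTTATTCCTCAGTGcagctt
Cd244 motif 3: aaatgtACAGTATATTCAGTAGTCcagcct
Cd48 motif: aaaggtACCTACTACATGAGAGTGctgcgt

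The Slamf1 motifs lie at chr1:171792339-171792356 and chr1:171799588-171799605, and those of Slamf6 at chr1:171939437-171939454 and chr1:171941664-171941681, all on the plus strand. On the minus strand, the Slamf7 motif lies at chr1:171636327-171636344 and the second Ly9 motif at chr1:171593438-171593455. The Cd84, Cd244 and Cd48 motifs shown lie on the plus strand at chr1:171885601-171885618, chr1:171580788-171580805 and chr1:171695903-171695920. Slamf1, Slamf6, Ly9 and Cd84 each held 2 matches, Cd244 held 4, Slamf7 and Cd48 held 1, and Sh2d1a held 0. At least 1 match was present in 7.85% of 21581 coding sequences searched and at least 2 in 0.6%. Within the last 120 codons, where a receptor's tail is encoded, these shares were 2.08% and 0.05%. The second motifs of Slamf1 and Slamf6 begin 11 and 15 codons from the end. The Cd48 match begins 136 codons from the end of its 240 codons, and CD48 is a lipid-anchored protein without a cytoplasmic tail. A match is a description of the letters and not a measured docking site.

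The 7 receptor genes lie together on chromosome 1, within 394 kb (chr1:171559193-171953170, GRCm38), whereas Sh2d1a lies on the X chromosome (chrX:42502453-42529330). The coordinates in the deposited table equal those of GENCODE M21 for 8 of 8 genes. Ly9, on the minus strand, lies wholly inside the annotated span of Cd244 on the plus strand, an overlap of 18787 bases. Whether the counting used strand is stated in no source used here, so the exon and intron reads of Cd244 and Ly9 are uncertain. Smaller overlaps on the opposite strand involve genes with few reads, namely Gm37065 with 45 exon reads beside Slamf6, Gm37787 with 2 beside Slamf7 and Tenm1 with 9 beside Sh2d1a. On the same strand, Mir7683 lies in Slamf7 and Gm37010 in Cd48, each with 0 exon reads.

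**Figure D1:**
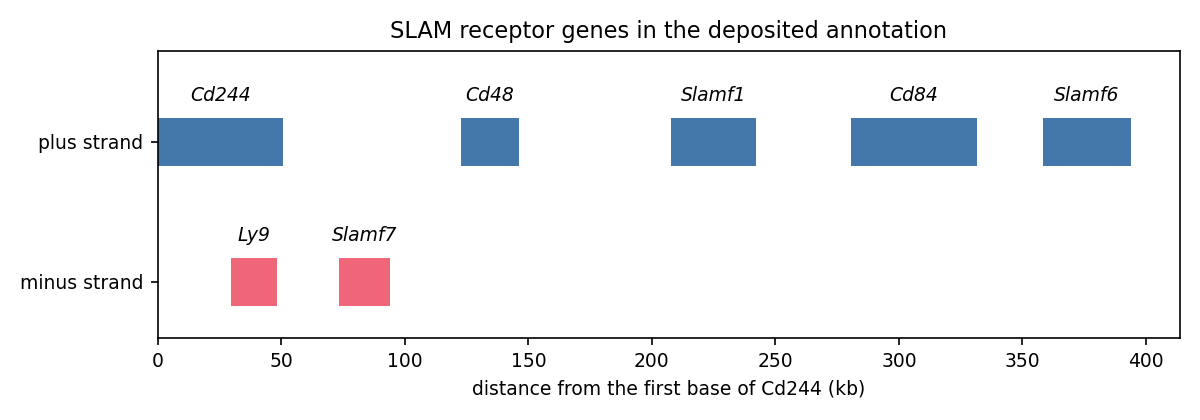
The SLAM receptor genes drawn to scale along chromosome 1, with distance in kilobases (kb) from the first base of Cd244 on the horizontal axis and strand on the vertical axis. The bar of Ly9 falls within the span of Cd244, and the cluster ends with Slamf6 at 394 kb.

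Total exon reads per library ran from 903524 in library 21 and 1916746 in library 23 to 10122187 in library 19, an 11.2-fold range. Libraries 21 and 23 also had the highest share of mitochondrial reads (4.99% and 4.15%, against 3.36% to 3.62% elsewhere) and the highest level of the proliferation gene Mki67 (392 and 558 CPM, against 171 to 250). CPM is the number of exon reads per 1000000 of the effective library size. The targeted gene Gpx4 ranged between libraries from 3.20 to 31.3 CPM and was not used to assign a genotype. The defining T and iNKT cell markers were present in 6 of 6 libraries, with Cd3e at 764 to 924 CPM, Zbtb16 at 245 to 357 CPM and Trav11 at 49.5 to 81.6 CPM. Of the list's other markers, Cxcr6 (783 to 1439 CPM), Il2rb (724 to 1376 CPM) and Tbx21 (59.0 to 160 CPM) varied more. Cd3d (147 to 187 CPM) and Trac (398 to 528 CPM) varied less than Zbtb16 and Trav11. The sum of the list's 8 genes ran from 3363 to 4816 CPM. Markers of other cells varied: the sum of 8 B cell genes, mostly Igkc, was 5241 CPM in library 23 but 986 CPM in library 18. Cd79b (1.05 against 8.55 CPM), Ms4a1 (7.91 against 10.1) and Cd22 (8.96 against 9.52) were lower in library 23, and the rest were higher. The sum of 6 plasma cell genes was 1283 and 249 CPM in these libraries, mostly Jchain (1185 and 150 CPM). Of the plasma cell genes, Prdm1 alone was lower in library 23 (42.2 against 65.1 CPM). The 4 erythroid genes summed to 3.49 CPM in library 18 and reached 212 CPM in library 23. NK cell genes summed to 64.3 to 108 CPM, mostly Klrb1c (40.1 to 79.1 CPM). Ncr1 and Eomes had medians of 0.896 and 1.47 CPM, and Klra8 had 0 reads. The sum of 7 myeloid genes was 73.4 to 99.6 CPM, mostly Cst3, and that of Cd8a with Cd8b1 was 0 to 2.95 CPM. Several of these sums are lowest in library 18 and highest in library 23, though some genes in them are not. The part of these lists, of depth and of Mki67 in the results below was not tested.

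Measured per kilobase of exon, Ly9 was the most abundant of the SLAM genes and Cd244 was barely present. The authors' RPKM values, reads per kilobase of exon and per 1000000 reads, had medians over libraries of 46.7 for Ly9, 36.2 for Cd48, 26.7 for Slamf7, 15.2 for Cd84, 10.6 for Slamf6, 7.11 for Sh2d1a, 5.47 for Slamf1 and 0.334 for Cd244. The median RPKM of Ly9 was 139.6-fold that of Cd244. This order was the same in 7 of 7 alternative settings, which were CPM per kilobase and leaving out each library in turn. Neighbours in the order were close. The ranges of RPKM over libraries overlapped for each neighbouring pair except Slamf1 (4.28 to 6.24) and Cd244 (0.188 to 0.428). Within libraries the higher gene of a pair was above the lower in 6 of 6 for Cd48 over Slamf7, Slamf7 over Cd84, Cd84 over Slamf6, Slamf6 over Sh2d1a and Slamf1 over Cd244. It was above in 5 of 6 libraries for Ly9 over Cd48 and in 4 of 6 for Sh2d1a over Slamf1, so that Sh2d1a and Slamf1 did not keep their order.

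**Figure D2:**
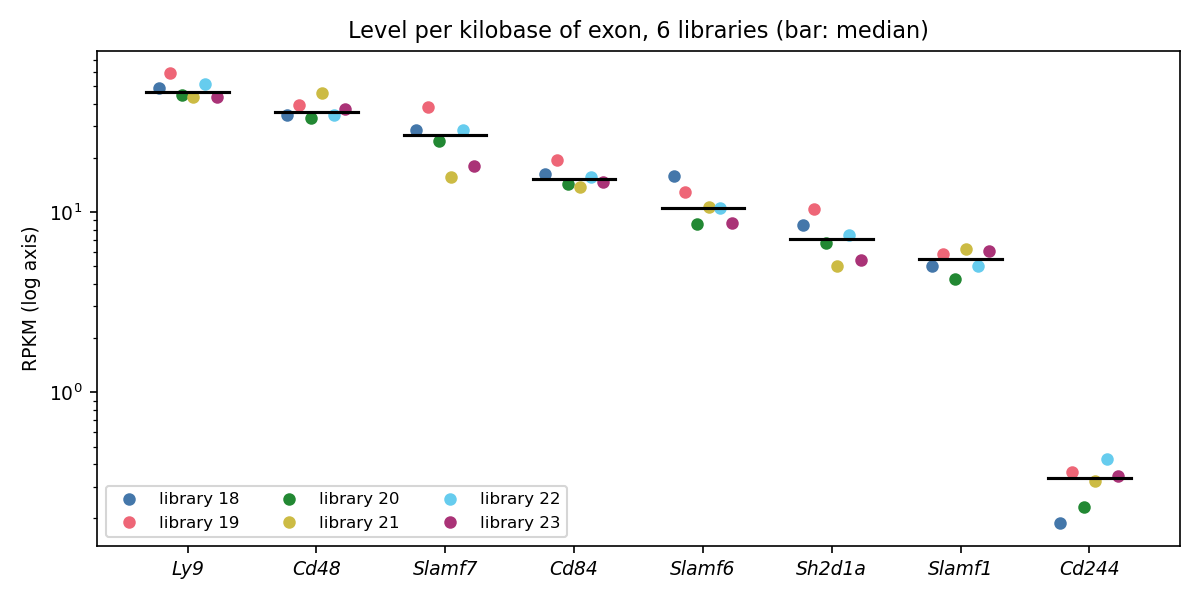
RPKM of each SLAM gene on a log axis, with 1 coloured point per library and a bar at the median over 6 libraries. The points of neighbouring genes overlap from Ly9 (median 46.7) down to Slamf1 (5.47), and Cd244 (0.334) stands apart below them.

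Among the receptors of iNKT selection, Slamf6, which encodes the self-binding receptor also called Ly108, was high in library 18. Slamf6 had 247, 188, 154, 180, 159 and 141 CPM in libraries 18 to 23. The exact 95% Poisson interval in library 18, 236 to 258 CPM, did not overlap that of any other library. The highest over lowest library was 1.75 (95% interval 1.54 to 1.99), and 1.33 without library 18. Here and below, the libraries of this ratio were picked as the extremes, which alone puts it above 1. Its interval takes no account of that choice. In library 18, Slamf6 also took 20.1% of all receptor exon reads (exact binomial interval 19.3% to 20.9%), against 13.2% to 16.4% in the other libraries. Zbtb16, the gene of the iNKT lineage factor PLZF, was highest in the same library (357 CPM), as was Tbx21, the gene of the T-box factor of type 1 cells (160 CPM, against 59.0 to 131 elsewhere). These 2 were picked after their values were seen from a list of 8 iNKT and T cell markers, and the other 6 peaked in library 19 or 22.

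Slamf1, which encodes the self-binding receptor CD150, had 65.2, 71.8, 63.6, 88.1, 63.3 and 82.8 CPM in libraries 18 to 23. It was highest in the shallow libraries 21 and 23, where 73 and 157 reads were counted. The interval in library 21 (69.0 to 111 CPM) overlapped that of each other library, and the highest over lowest was 1.39 (1.07 to 1.80).

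Sh2d1a ran the other way, with 59.8, 68.8, 54.2, 38.6, 50.8 and 39.5 CPM in libraries 18 to 23. Its lowest levels were in libraries 21 and 23, on 32 and 75 reads, the libraries with the least depth and the most Mki67. The highest over lowest was 1.78 (1.25 to 2.63). Per exon read of Sh2d1a there were 20.6, 19.4, 21.5, 28.3, 22.1 and 26.0 exon reads of the 7 receptors in libraries 18 to 23, a ratio that also carries the genes' lengths.

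Slamf7 encodes the self-binding receptor CRACC, which in mouse NK cells works with the SAP relative EAT-2. It had 276, 348, 275, 165, 265 and 182 CPM in libraries 18 to 23. Library 19 was the highest and libraries 21 and 23 the lowest, and the Poisson intervals of these 3 levels (337 to 359, 139 to 195 and 164 to 203 CPM) left libraries 21 and 23 overlapping each other but not library 19. Its highest over lowest, 2.10 (1.77 to 2.51), was the widest among the SLAM genes with 200 or more exon reads. It was 1.67 without library 19 and 1.31 without libraries 21 and 23. The EAT-2 genes Sh2d1b1 and Sh2d1b2 had 3 and 2 reads in total.

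Ly9 encodes the self-binding receptor CD229, whose loss in mice expands iNKT cells. It had 340, 387, 356, 332, 348 and 318 CPM in libraries 18 to 23. Cd84, a self-binding receptor of lymphocytes and myeloid cells, had 214, 242, 216, 199, 200.5 and 203 CPM in libraries 18 to 23. Both were highest in library 19 and narrow in range, at 1.22 (1.12 to 1.33) for Ly9 and 1.21 (1.04 to 1.43) for Cd84. On all exon reads as library size the range of Ly9 was 1.34, and on the authors' RPKM 1.35.

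Cd48, the ligand of CD244 and, in mice, of CD2, had 87.1, 92.9, 95.8, 125.5, 83.3 and 98.1 CPM in libraries 18 to 23. Library 21 stood above the others, on 104 reads, though its interval (103 to 152 CPM) overlapped those of libraries 20 and 23. The highest over lowest was 1.51 (1.21 to 1.87), and 1.18 without library 21. Cd2 was also highest in library 21 (193 CPM, lowest 138 in library 18).

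Cd244, which encodes the NK cell receptor 2B4, had 1.93, 3.48, 2.73, 3.62, 4.25 and 3.69 CPM in libraries 18 to 23, from 16, 37, 15, 3, 23 and 7 exon reads. With 101 exon reads in all it was under the minimum of 200 for the test. In library 21 its level equals that of the 3 reads which a count of 0 would allow.

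**Figure D3:**
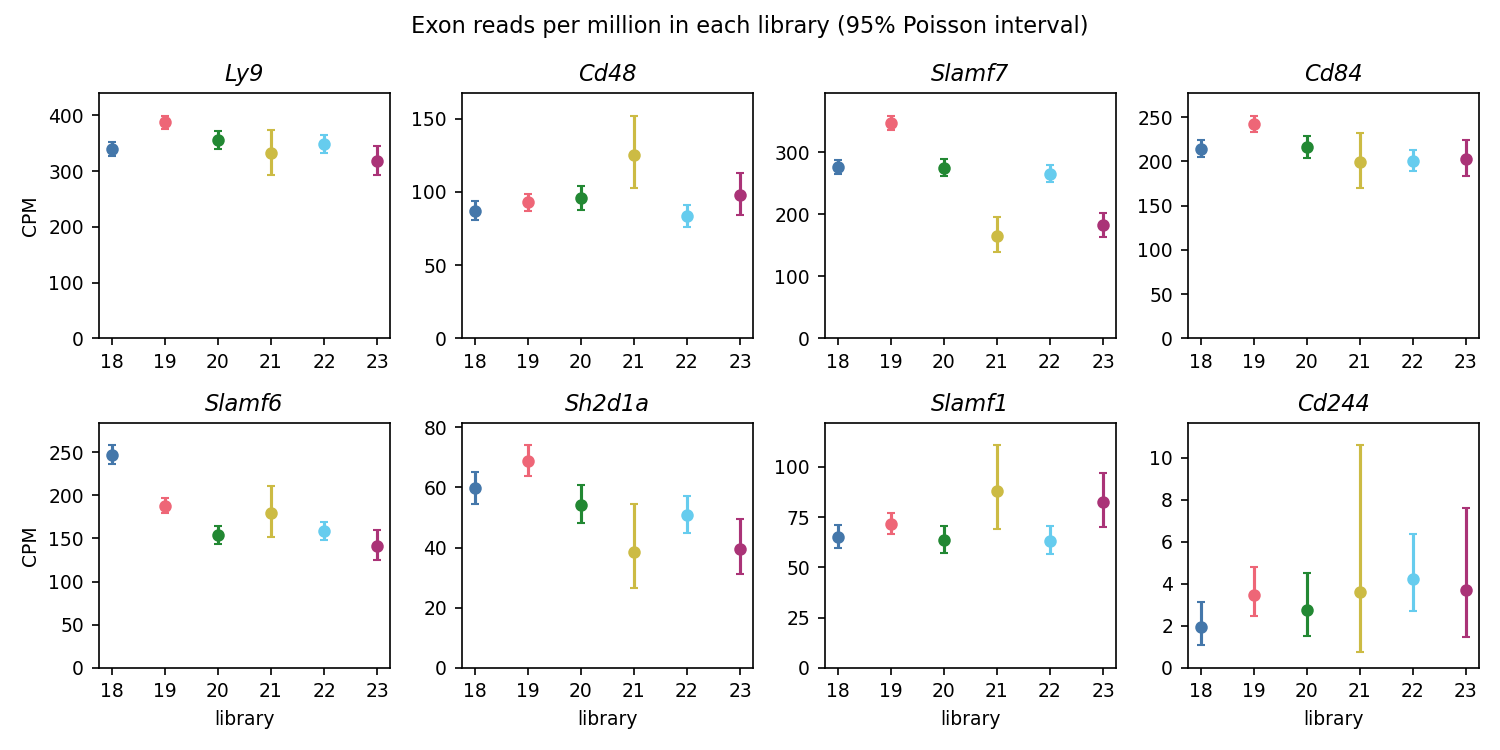
CPM of each SLAM gene in libraries 18 to 23, with exact 95% Poisson intervals and axes that start at 0. Slamf6 is highest in library 18 (247 CPM), Slamf7 and Sh2d1a are lowest in libraries 21 and 23, and Cd48 is highest in library 21 (125.5 CPM).

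Differences between libraries beyond counting error were tested with a chi-square test on exon reads, in genes that had 200 reads or more over all libraries. Of the SLAM genes, 7 of 8 passed this minimum, and 7 of 7 were called at an adjusted p under 0.05. Over all 9042 genes tested, 71.6% were called, so a call sets no gene apart. The chi-square adjusted p was lowest for Slamf7 (8.47e-54) and Slamf6 (4.66e-47) and highest for Slamf1 (0.00684) and Cd48 (0.00448). With each statistic divided by 3.96, the median over all tested genes of the statistic per degree of freedom, Slamf6 (adjusted p = 4.10e-10) and Slamf7 (9.84e-12) were called, 2 of 7, against 15.8% of genes. The other 5 had scaled adjusted p between 0.212 and 0.889. Without library 19 the calls of Ly9 (adjusted p = 0.180) and Cd84 (0.339) were lost, and without library 21 that of Cd48 (0.128). Without libraries 21 and 23 the calls of Slamf1 (0.144) and Cd48 (0.122) were lost. The median of highest over lowest was 1.51 for the 7 tested SLAM genes and 1.57 for all tested genes, and 6 of the 7 stayed under 2-fold, as did 72.9% of genes. These p-values compare the spread between 6 unlabelled libraries with counting error, and they depend on read number as well as on spread. Ly9, with a range of 1.22 on 11654 reads, had a chi-square adjusted p of 7.66e-08. Cd48, with a range of 1.51 on 2978 reads, had 0.00448. The p-values carry nothing about genotype. In bulk RNA, fewer cells of a type and less RNA per cell cannot be told apart.

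The summed level of the 7 receptors was 1231, 1333, 1163, 1093, 1123 and 1030 CPM in libraries 18 to 23. Library 19 was the highest and library 23 the lowest, a ratio of 1.29 (1.23 to 1.36), or 1.19 without libraries 21 and 23. The 8 iNKT and T cell marker genes were summed alike and were also highest in library 19 (4816 CPM) and lowest in library 23 (3363 CPM). Most of that sum in library 19 was Cxcr6 (1439 CPM) and Il2rb (1376 CPM), the only markers of the list that were highest there. Zbtb16 was lowest in library 19 (245 CPM), Tbx21 was highest in library 18, and Cd3e, Cd3d, Trac and Trav11 were highest in library 22. A link between the 2 sums was not tested.

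Some of the tested SLAM genes were each other's nearest within the family by their levels over libraries. Likeness was the root mean square difference, over 6 libraries, between log2 CPM values each centred on the gene's own mean. It depends on the size of a gene's range as well as on its shape, so genes of narrow range lie close together. Ly9 and Cd84 were each other's nearest (0.049), as were Slamf7 and Sh2d1a (0.10) and Slamf1 and Cd48 (0.11). Slamf6 was farther, at 0.25 from its nearest, Cd84. For comparison, the median difference over 6274 candidate genes ran from 0.20 for Ly9 to 0.41 for Slamf7. For each tested SLAM gene, genes outside the family were closer than its nearest SLAM gene, as given below. All genes are read in the same 6 libraries, which differ in depth and in Mki67, and the pairing is a description.

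**Figure D4:**
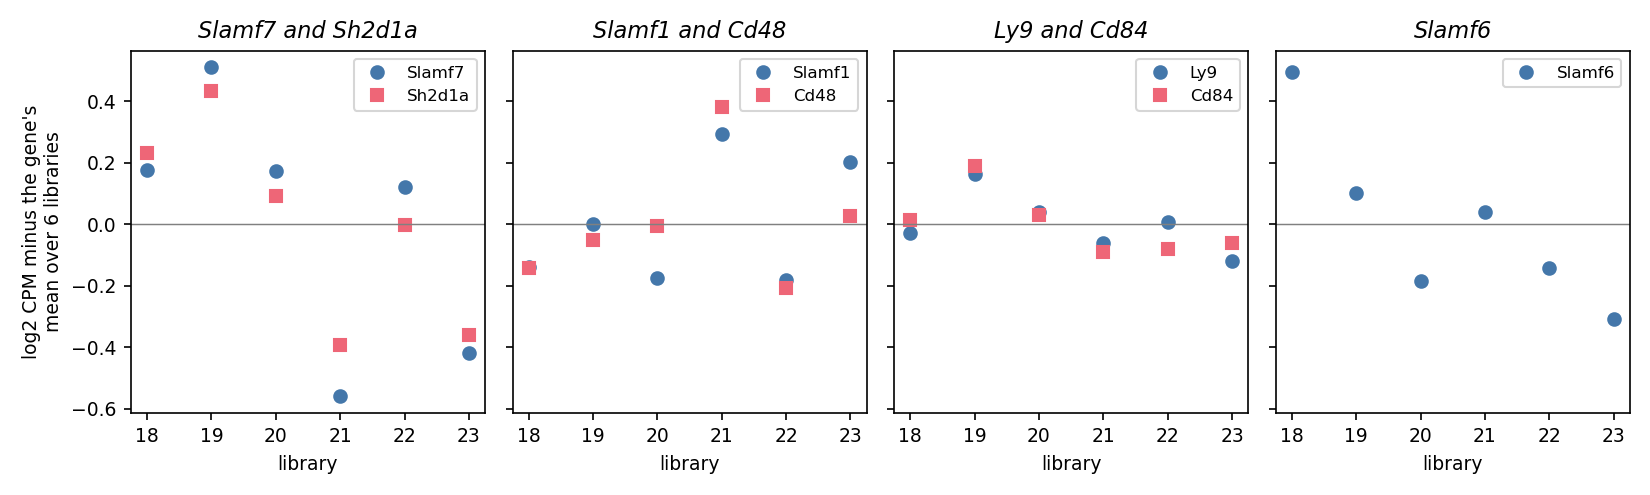
Log2 CPM of each tested SLAM gene minus its own mean over 6 libraries, against library number, with the mutually nearest genes in the same panel. Slamf7 and Sh2d1a are lowest in libraries 21 and 23, Slamf1 and Cd48 are highest in library 21, Ly9 and Cd84 stay near 0, and Slamf6 stands at 0.50 in library 18.

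Outside the family, the genes most like each tested member by the same measure were found among the same candidates. They were Reep3 (0.045) and Foxn2 (0.047) for Slamf1, and Runx1 (0.11) and Ncoa4 (0.12) for Slamf6. For Slamf7 they were Galnt12 (0.074) and D3Ertd751e (0.078), and for Ly9 Smg1 (0.030) and Adgre5 (0.032). Ckap5 (0.041) was close to Cd48. For Cd84 they were Aggf1 (0.032) and Ddx17 (0.038), and for Sh2d1a Cyth4 (0.049) and Mthfs (0.072). Slamf6 had the least close match. Runx1, the gene of a Runx transcription factor, had 278, 263, 218, 243, 217 and 192 CPM in libraries 18 to 23, highest and lowest in the same libraries as Slamf6.

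The promoters of Slamf1 and Cd48, a mutually nearest pair (0.11), are shown from 250 bases before to 50 after the RefSeq start (GRCm38.p6). Neither gene was called by the scaled chi-square statistic (adjusted p = 0.889 and 0.864). Genes outside the family were closer to each, such as Reep3 (0.045) to Slamf1 and Ckap5 (0.041) to Cd48. Shared regulation was not tested. Capitals mark matches, on either strand, to an E-box (CANNTG), an AP-1 site (TGANTCA), a Runx core (TGTGGT) or a T-box core (GGTGTGA).
Slamf1 promoter: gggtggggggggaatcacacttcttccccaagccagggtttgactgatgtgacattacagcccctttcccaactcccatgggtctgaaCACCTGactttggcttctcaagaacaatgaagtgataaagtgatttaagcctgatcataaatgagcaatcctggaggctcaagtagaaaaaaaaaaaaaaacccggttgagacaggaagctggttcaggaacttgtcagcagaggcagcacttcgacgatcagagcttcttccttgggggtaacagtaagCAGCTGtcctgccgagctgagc
Cd48 promoter: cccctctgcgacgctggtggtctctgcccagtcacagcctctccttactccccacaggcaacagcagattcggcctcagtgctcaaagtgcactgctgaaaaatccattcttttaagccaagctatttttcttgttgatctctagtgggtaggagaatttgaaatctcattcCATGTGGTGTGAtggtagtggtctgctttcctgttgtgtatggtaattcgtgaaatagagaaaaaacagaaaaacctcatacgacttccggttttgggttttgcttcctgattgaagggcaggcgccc

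The Slamf1 promoter (chr1:171766882-171767181, plus strand) held 2 E-boxes and no other match. In the Cd48 promoter (chr1:171681742-171682041, plus strand) an E-box, a Runx core and a T-box core overlapped in a single run. Among 6 SLAM genes with a RefSeq promoter, E-boxes numbered 3 in Cd244, 2 in Slamf7 and 1 each in Cd84 and Slamf6, an AP-1 match stood in Cd244, Slamf7 and Cd84, and a Runx match in Cd84. Of 32851 promoters of the same length, 72.3% held an E-box, 7.81% an AP-1 match, 16.8% a Runx core and 3.98% a T-box core. Ly9 and Sh2d1a had no entry. The matches are descriptions of letters within this window.

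The share of a gene's reads that fell on introns differed between the SLAM genes and, most of all for Slamf6, between libraries. Reads on introns lie within a gene but outside its annotated exons, and the deposited table gives their fraction. Median shares were 10.6% for Ly9, 27.9% for Slamf7, 42.7% for Cd48, 53.5% for Slamf6, 59.0% for Slamf1, 61.3% for Sh2d1a, 65.3% for Cd84 and 82.3% for Cd244, against a median of 41.2% over genes tested. The shares were not adjusted for gene structure. Gene spans ran from 18787 bases for Ly9 to 51022 for Cd84, and exon lengths from 1189 for Cd48 to 7367 for Slamf6. The intron reads of Cd244 and Ly9 carry the uncertainty of their overlap.

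Slamf6 had 56.9%, 61.8%, 49.7%, 47.9%, 50.1% and 74.4% of its reads on introns in libraries 18 to 23. Library 23 was high, with 777 intron and 268 exon reads (exact binomial interval 71.6% to 77.0%), and it was also the library with the lowest exon level of Slamf6. Per 1000000 intron reads, Slamf6 had 354, 351, 151, 175, 191 and 473 in libraries 18 to 23. Libraries 18, 19 and 23 were high on introns, while on exons the interval of library 18 alone lay clear of all the others.

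Cd84 had 66.2%, 66.8%, 64.4%, 80.3%, 62.6% and 62.6% of its reads on introns in the same order. Library 21 was high, with 674 intron and 165 exon reads (interval 77.5% to 83.0%), and without it the range was 62.6% to 66.8%. Its exon level of Cd84, 199 CPM (Poisson interval 170 to 232 CPM), was the lowest of the 6. Libraries 22 and 23 were close, at 200.5 and 203 CPM. Sh2d1a was even across libraries, at 58.9% to 65.0%.

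A chi-square test of exon against intron reads, chosen after the values were seen, called 7 of 8 SLAM genes, against 66.1% of 9979 genes tested. The chi-square adjusted p was 2.19e-50 for Slamf6 and 2.14e-19 for Cd84, and Sh2d1a was not called (0.494). Without library 23 the adjusted p of Slamf6 was 3.74e-25, and without library 21 that of Cd84 was 0.000397. The range over libraries was 26.5 points for Slamf6, 18.4 for Cd244, on few reads, and 17.8 for Cd84, against a median of 14.0 points over genes tested. The range of Slamf6 was wider than that of 80.8% of genes tested, and that of Cd84 wider than 63.2%.

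**Figure D5:**
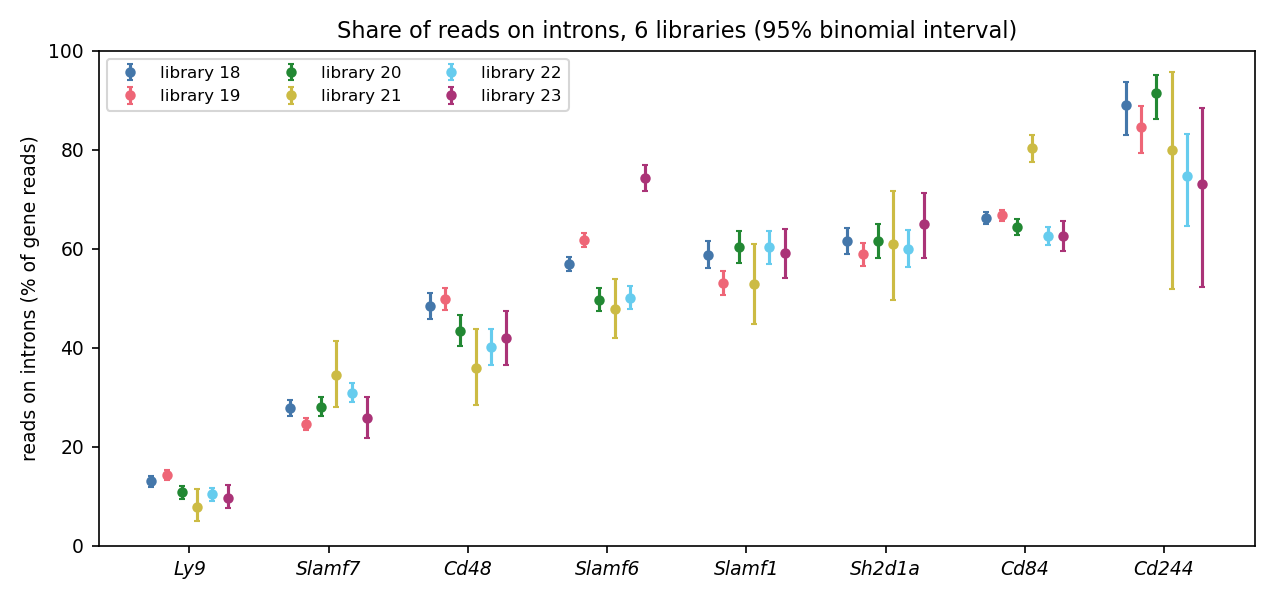
Percent of each SLAM gene's reads on introns in libraries 18 to 23, ordered by median, with exact 95% binomial intervals. Slamf6 in library 23 (74.4%) and Cd84 in library 21 (80.3%) stand above the other libraries, and Sh2d1a is even.

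Of a list of 22 other genes of SLAM signalling, 16 passed the read minimum and 13 were called by the chi-square test, near the 71.6% of all genes. With the scaled statistic 3 of 16 were called, near the 15.8% of all genes, and these were the adaptor gene Dok2, the early response gene Egr1 and Zbtb16. The median of highest over lowest was 1.36, against 1.57 over all tested genes. Fyn, which encodes the kinase that SAP recruits, had a median of 544 CPM (501 to 614). Other medians were 369 CPM for Rasa1, a Ras GTPase-activating protein, 338 for the kinase gene Lck, 268 for Zbtb16 and 263 for Prkcq, which encodes protein kinase C theta. Lck (adjusted p = 0.140), Vav1 (0.291) and the phosphatase gene Inpp5d (0.271) were not called by the chi-square test. The family members Slamf8 and Slamf9 had 2 and 0 reads in total, and a count of 0 allows up to 3.62 CPM in library 21 but 0.282 CPM in the deepest, library 19.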

How the data were processed

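The labels' protocols name a NucleoSpin RNA XS Micro kit for extraction and a QIAseq UPXome kit for library preparation. As genome builds the submitters' processing notes list GRCm38 and mm10. The aligner, counter, annotation release, strand use and molecular identifiers were not given in the sources used here. The deposited table gives, per the file headers, whole exon read counts, the fraction of each gene's reads on introns, RPKM values scaled by the authors to exon length and depth, and exon lengths. A further 11 columns held values per library and were left aside.

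None of the 6 library names occurs in a label. The planned comparison of Gpx4 cKO with WT by the quasi-likelihood test of edgeR was therefore not run, and values are given per library. The members and lists were chosen with earlier results of these data known. The named genes are the 8 members, the 6 SLAM pathway genes with the highest median CPM, any with 0 reads, and the 2 genes most like each tested member. A few genes that this rule takes are not reported here. A few others, such as Tbx21, Cd2, Vav1, Inpp5d, Dok2, Egr1 and the adaptor genes of 3 and 2 reads, were named after their values were seen.

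CPM used effective library sizes from TMM factors (edgeR 4.0.16, R 4.3.3) over 9510 genes kept by filterByExpr, with factors from 0.917 to 1.05. Poisson and binomial intervals are exact, at 95%, and ratios have exact conditional intervals. For highest over lowest, the conditional intervals treat the libraries as fixed in advance, although they were picked as the extremes. These intervals cover counting error only, since copies made by PCR are not independent molecules. The chi-square test had 5 degrees of freedom, needed 200 reads, and was adjusted by the Benjamini-Hochberg method over all genes tested at a threshold of 0.05, in scipy 1.17.1. It was tested on simulated data drawn with Poisson counting error, which lack the wider spread between libraries seen here in most genes. Intron reads were recovered from the fraction and the exon count, and 99.99% lay within 0.01 of a whole number. Likeness used log2 CPM with a prior count of 2 and genes with a mean of at least 20 CPM. Alternatives were size factors from DESeq2 1.42.0, all exon reads as library size, other minimums, RPKM, a scaled statistic, and leaving out libraries.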

Additional observations from a re-analysis of the deposited data

Results flagged for a closer look

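Of 17 measures over the 6 libraries (CPM and intron share of each SLAM gene, and the summed receptors), 2 had a library far from the others by Dixon's criterion. For values of equal precision, chance alone meets it in about 1 in 20 groups. The libraries differ in depth, so that rate does not hold here, and no share over all genes is given beside the count. Both were in library 21, the shallowest. Cd48 was at 125.5 CPM there, against 83.3 to 98.1 CPM in the others, from 104 reads. Its Poisson interval there (103 to 152 CPM) overlapped those of libraries 20 and 23. Cd84 had 80.3% of its reads on introns there, against 62.6% to 66.8%, from 674 intron and 165 exon reads.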

How the results depend on the processing

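No paired analysis was possible because no library could be matched to a sample label, so the replicate numbers of the labels belong to no column and no genotype comparison was run. The count of 7 varying SLAM genes was 7 with size factors, all exon reads as library size and TMM factors from all genes (71.6% to 73.5% of all genes). It was also 7 with a minimum of 50 reads (69.3% of all genes) or none (53.9%). When a library was left out it was 5 to 7 (61.0% to 68.4%). It was 2 with the chi-square statistic scaled by its median (15.8%). Without libraries 21 and 23, an alternative chosen after seeing the data, it was 5 (61.2%). For the summed receptors, the highest over lowest library was 1.29, and it was 1.39 on all exon reads, 1.35 on RPKM, 1.31 with size factors, 1.20 to 1.29 when a library was left out, and 1.19 without libraries 21 and 23. Among single genes it moved for Ly9 to 1.34 on all exon reads and to 1.35 on RPKM, for Slamf6 to 1.33 without library 18, and for Slamf7 to 1.67 without library 19 and to 1.31 without libraries 21 and 23. For Cd48 it moved to 1.18 without library 21 and to 1.15 without libraries 21 and 23. The cause was not tested. The count of 7 genes varying in intron share was 6 to 7 when a library was left out, against 56.6% to 62.3% of all genes. It lost Slamf1 without library 19 or Cd244 without library 22. The ratio of Ly9 to Cd244 in RPKM was 129 to 151 when a library was left out, and 143 on CPM per kilobase. Depth limits libraries 21 and 23 most: Sh2d1a rests there on 32 and 75 reads and Cd244 on 3 and 7.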
